A study of Homo sapiens with 6 samples.

Results

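The nuclear genes for the subunits of respiratory chain complexes I to V were followed in Huh-7, a human hepatocellular carcinoma line, with and without overexpression of ALKBH5, an enzyme that removes the methyl group of N6-methyladenosine from RNA. Members were taken by symbol: NDUFA, NDUFB, NDUFC, NDUFS and NDUFV genes (complex I), SDHA to SDHD (II), UQCR genes and CYC1 (III), COX4 to COX8 genes (IV) and ATP5 genes (V). The rule found 86 of 18030 genes: 37, 4, 10, 15 and 20 in complexes I to V. The tables held 0 genes of the mitochondrial genome, so the subunits encoded there were not analysed here, nor were COX6A2 and COX7B2. NDUFAB1 falls outside the symbol rule and is given with the carriers.

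The 3 oeALKBH5 libraries carry the genotype label of ALKBH5 overexpression, and the 3 control libraries carry the genotype label WT and are described as parental. Per the labels' protocols, a plasmid for ALKBH5 was introduced by electroporation (3 pulses of 1250 V and 20 ms) and RNA was taken 60 h later. That protocol also stands beside the controls, so the labels do not state whether these were electroporated or given an empty plasmid; both groups carry the treatment label Untreated. Libraries are numbered as biological replicates, but no label names separate cultures, and the p-values therefore rest on differences among these 6 samples whose source may be technical.

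Complexes I to IV sit in the inner mitochondrial membrane and pass electrons from NADH and succinate through ubiquinone and cytochrome c to oxygen, and complexes I, III and IV pump protons as they do so. Complex V, the ATP synthase, lets the protons return and uses that flow to make ATP. Most subunits are encoded in the nucleus and imported, and hepatocytes are rich in mitochondria. Many of these genes have promoters with sites for the transcription factors NRF1, GABP (of the ETS family) and YY1.

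The libraries held 18607084 to 19378030 estimated counts. ALKBH5 was at 169, 133 and 110.4 CPM (counts scaled to a common library size by the TMM method) in oeALKBH5 replicates 1, 2 and 3 and at 70.5, 74.2 and 75.5 CPM in controls, with no overlap (log2 fold change 0.90, SE 0.177, edgeR adjusted p = 0.0154). Leaving out control replicate 2 or 3 ended that call (adjusted p = 0.0529 and 0.0589), within a range of 3.37e-10 to 0.0589 over 15 alternatives. All 6 hepatocyte markers (ALB, APOA1, TTR, SERPINA1, HNF4A, AFP) were expressed, and all 6 fell. Their summed FPKM (counts scaled by transcript length and depth) was 7211 to 7953 in oeALKBH5 and 11480 to 11720 in controls. The 4 endothelial markers summed to 3.02 to 3.26 FPKM in oeALKBH5 and 4.58 to 5.47 in controls; PECAM1, the 1 tested, fell (log2 fold change -0.70, edgeR adjusted p = 3.81e-06). The 5 stellate markers summed to 5.54 to 5.70 FPKM in oeALKBH5 and 3.91 to 4.11 in controls, and 2 of 4 tested rose, COL1A1 (1.07) and COL1A2 (0.92). DCN, VWF, CDH5 and KDR were near 0. The macrophage list summed to 220.5 to 267 FPKM, nearly all from CD68 and LYZ, with 0 of its 4 genes called, and the cholangiocyte list to 92.5 to 119 FPKM, with KRT19 lower and SOX9 higher. The part of these shifts in the results below was not tested, and in these bulk samples fewer cells of a type and less RNA per cell cannot be told apart.

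Respiratory chain mRNAs were lower in oeALKBH5 cells in every complex, by modest amounts. Of 81 members tested, 62 fell (76.5%), 0 rose and 19 did not pass at an edgeR adjusted p under 0.05. Over all 14168 tested genes 22.0% were called lower and 20.8% higher. The median log2 fold change of the tested members was -0.25, or 16.0% lower, against 0.01 for all tested genes, and it ranged from -0.52 (COX5A) to 0.31 (COX6B2). For 64 members every oeALKBH5 library lay below every control, which held for 27.0% of all tested genes, and for 0 members did every one lie above. The authors' FPKM values gave 47 of 80 members lower and 1 higher (limma on log2(FPKM + 1)), beside 16.5% and 29.4% of all genes on that scale. With library size alone as scaling, the median of all tested genes moved to 0.09 and that of the members to -0.17, the same distance apart (-0.26), with 49 members lower and 1 higher. With the dependence on transcript length removed, described further down, 28 members fell and 8 rose, beside 20.8% and 19.3% of all genes.

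**Figure D1:**
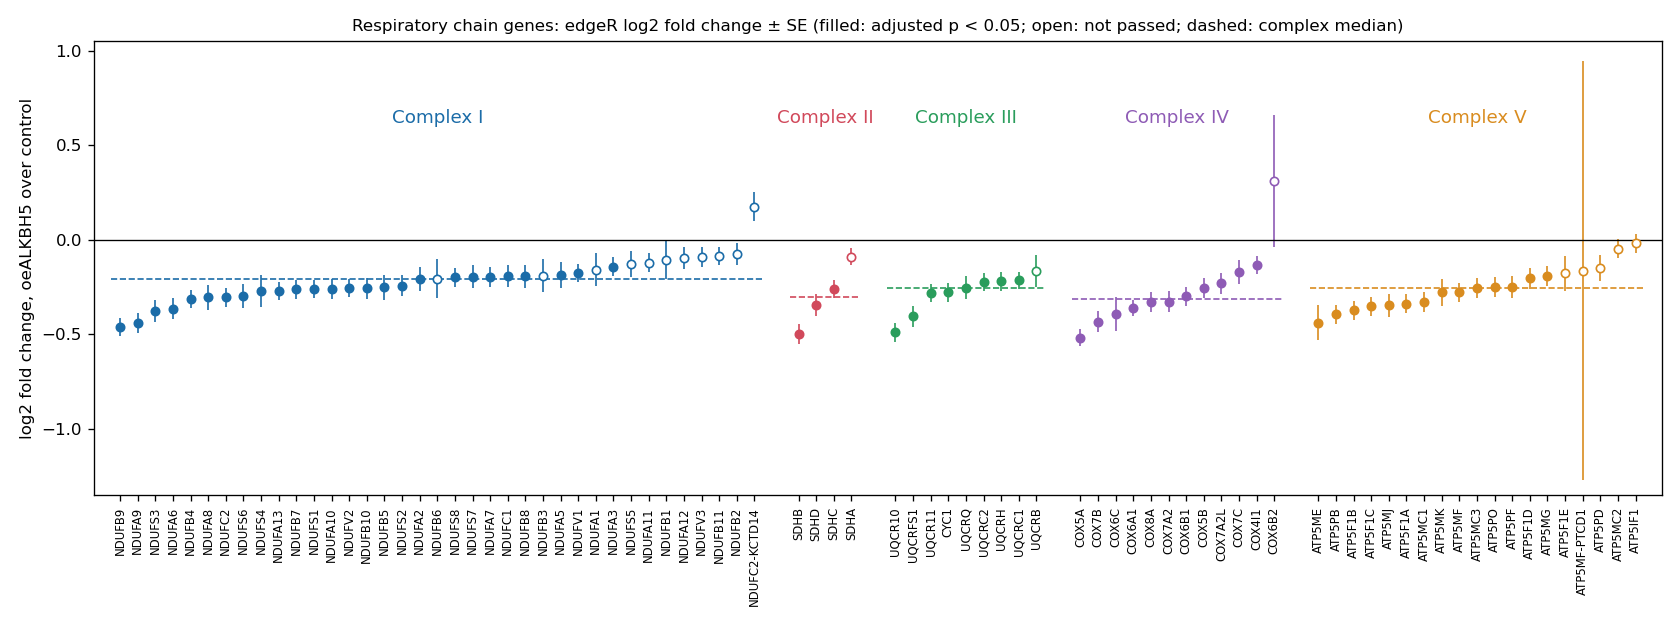
edgeR log2 fold change (oeALKBH5 over control, y axis) of the 81 tested members, ordered within each complex, with bars of 1 SE; filled points passed at an adjusted p under 0.05, open points did not, and dashed lines are complex medians. All but 2 points, NDUFC2-KCTD14 and COX6B2, lie below 0, and both are open.

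The 3 oeALKBH5 libraries were graded. Members lay at a median log2 ratio to the control mean of -0.34 in replicate 1, -0.26 in replicate 2 and -0.15 in replicate 3, while the controls lay between -0.03 and 0.02. Replicate 1 was the lowest of the 3 oeALKBH5 libraries for 61 of 81 members (37.4% of all tested genes), and replicate 3 the highest for 68 (35.3%). ALKBH5 itself was highest in replicate 1 and lowest in replicate 3; with 3 libraries the relation of the levels was not tested. Without replicate 1, 60 members fell and the median was -0.20; without replicate 3, 72 fell, 1 rose (NDUFC2-KCTD14) and the median was -0.29.

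Summed over all members, the mRNA took 9569, 9859 and 10628 CPM in oeALKBH5 and 12201, 11782 and 12067 CPM in control libraries. The groups did not overlap, and the mean was 16.6% lower (10019 ± 547 against 12017 ± 214 CPM, SD, n = 3 each). By complex, the mean sum was 14.3% lower for I, 15.6% for II, 16.8% for III, 19.3% for IV and 17.7% for V. These sums are descriptions with no test, and differences between complexes were not tested. In FPKM the total was 11.5% lower. FPKM weights short genes more and, unlike these CPM values, is scaled by depth without TMM. As a share of all counts, without TMM, members held 0.984%, 1.02% and 1.08% in oeALKBH5 and 1.18%, 1.15% and 1.17% in controls. The part of length weighting and of scaling in the lower FPKM figure was not tested.

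**Figure D2:**
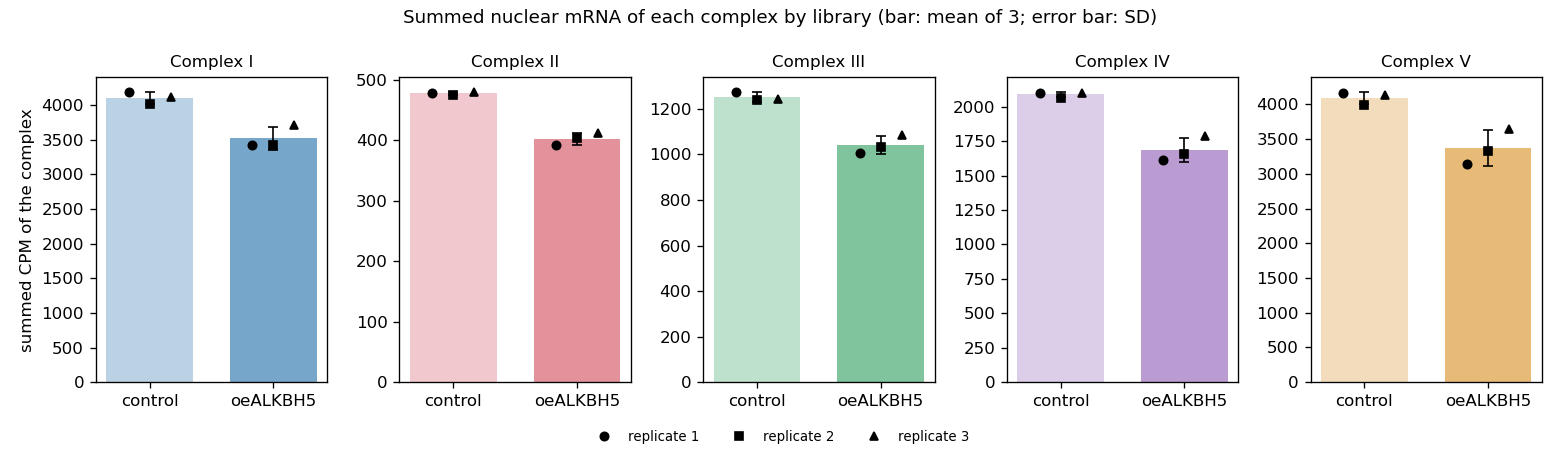
Summed CPM of the members of each complex (y axis, from 0) in control and oeALKBH5 libraries; bars are means of 3 libraries, error bars SD and symbols single libraries. In each of the 5 panels the 3 oeALKBH5 libraries lie below the 3 controls, and oeALKBH5 replicate 3 is the closest to them.

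Promoter sequences are shown for 1 member of each complex because these genes share known activator sites; the 5 were chosen for holding more than 1 match. RefSeq promoters (GRCh38.p14) were found for 68 of the 86 members and searched from 250 bases before to 50 after a start, on both strands, for GCGCATG (NRF1 core), CCGGAAG (ETS core, bound by GABP) and AAGATGGC (YY1 core). Each line below runs 5′ to 3′ along the gene's strand, from 220 bases before the start, with matches in capitals; matches to the NRF1 core on opposite strands can overlap, as in GCGCATGCGC.
NDUFB4, an accessory subunit of complex I, chr3:120596116-120596365, plus strand: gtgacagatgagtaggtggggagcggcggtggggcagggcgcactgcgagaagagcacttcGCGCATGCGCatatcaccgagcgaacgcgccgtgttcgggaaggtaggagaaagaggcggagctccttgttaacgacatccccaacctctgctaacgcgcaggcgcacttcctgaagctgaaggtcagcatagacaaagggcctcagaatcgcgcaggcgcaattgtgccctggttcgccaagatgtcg
SDHB, the iron-sulfur subunit of complex II, chr1:17054003-17054252, minus strand: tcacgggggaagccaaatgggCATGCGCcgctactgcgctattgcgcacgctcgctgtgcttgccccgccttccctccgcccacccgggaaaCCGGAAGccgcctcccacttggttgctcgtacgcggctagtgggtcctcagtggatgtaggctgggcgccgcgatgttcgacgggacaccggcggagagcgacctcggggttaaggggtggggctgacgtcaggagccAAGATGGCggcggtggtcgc
UQCR11, a small subunit of complex III, chr19:1605433-1605682, minus strand: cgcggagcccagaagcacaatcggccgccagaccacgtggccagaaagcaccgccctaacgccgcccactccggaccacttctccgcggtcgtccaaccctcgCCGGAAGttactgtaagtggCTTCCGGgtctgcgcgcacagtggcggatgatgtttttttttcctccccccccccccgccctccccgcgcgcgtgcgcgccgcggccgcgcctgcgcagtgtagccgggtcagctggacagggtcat
COX6A1, a subunit of complex IV, chr12:120437893-120438142, plus strand: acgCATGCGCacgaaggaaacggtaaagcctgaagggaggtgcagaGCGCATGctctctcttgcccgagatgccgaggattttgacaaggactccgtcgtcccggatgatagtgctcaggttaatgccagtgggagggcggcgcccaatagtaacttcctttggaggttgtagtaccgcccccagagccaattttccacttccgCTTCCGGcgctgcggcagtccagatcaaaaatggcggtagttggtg
ATP5F1C, the gamma subunit of the complex V rotor, chr10:7787957-7788206, plus strand: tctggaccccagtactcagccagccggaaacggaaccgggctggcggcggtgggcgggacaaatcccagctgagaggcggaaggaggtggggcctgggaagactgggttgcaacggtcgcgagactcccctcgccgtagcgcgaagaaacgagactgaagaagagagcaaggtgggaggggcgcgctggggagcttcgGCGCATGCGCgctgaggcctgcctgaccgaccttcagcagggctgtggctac
The NDUFB4 and ATP5F1C windows hold the palindromic NRF1 core, UQCR11 holds 2 ETS cores, and SDHB holds 1 match of each kind.

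At least 1 of the 3 motifs was in 37 of 68 member promoters (54.4%), against 31.0% of 11484 tested genes with a promoter in the table. The NRF1 core was in 15 (22.1% against 8.3%), the ETS core in 21 (30.9% against 21.1%) and the YY1 core in 12 (17.6% against 5.9%). Of the 15 members with an NRF1 core 14 fell, with a median log2 fold change of -0.30, and of the 52 tested without it 37 fell, with a median of -0.22. For the ETS core the same counts were 19 of 21 and 32 of 46, with medians of -0.27 and -0.21. For the YY1 core they were 12 of 12 and 39 of 55, with medians of -0.25 in both. These are descriptions of letters in a window, with no test. Over all tested genes 22.0% were called lower, and that share was not counted for all genes with each motif. Among the genes for the factors themselves, NRF1 was at 19.2 ± 1.29 CPM in oeALKBH5 and 18.8 ± 1.44 CPM in controls (log2 fold change 0.03, edgeR adjusted p = 0.781, n = 3 each). GABPA was at 32.9 ± 2.29 and 33.4 ± 0.520 CPM (-0.02, edgeR adjusted p = 0.812), and neither difference passed. GABPB1, for another GABP subunit, was at 36.0 and 34.8 CPM and did not pass (0.05, edgeR adjusted p = 0.605). GABPB2, also for a GABP subunit, was at 8.20 and 6.26 CPM and rose (0.39, edgeR adjusted p = 0.0119). With the length dependence removed GABPB2 did not pass (0.29, edgeR adjusted p = 0.0548). YY1 rose (0.21, edgeR adjusted p = 7.78e-04).

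Complex I oxidises NADH and is the largest complex. Of its 37 tested genes 26 fell (70.3%), with a median log2 fold change of -0.21. Over all tested genes 22.0% were called lower, and 49.0% of those under 1000 nt. In the NDUFV and NDUFS genes, which include the redox core of the matrix arm, 9 of 11 fell (median -0.24). With the length dependence removed 4 of the 11 fell and 0 rose (median -0.08). NDUFS1, which carries iron-sulfur clusters, was at 90.3, 95.9 and 97.1 CPM in oeALKBH5 and at 112, 114 and 113 CPM in controls. The groups were well apart (log2 fold change -0.26, SE 0.0478, edgeR adjusted p = 2.11e-04). NDUFS3, a core subunit near the ubiquinone site, was at 45.4, 46.3 and 50.4 against 57.7, 63.3 and 63.4 CPM, again without overlap (-0.38, SE 0.0588, edgeR adjusted p = 3.73e-05). NDUFV1, which holds the FMN and takes electrons from NADH, was at 490.5, 493 and 544 against 600.0, 564 and 562 CPM. Replicate 3 came near the controls (-0.18, SE 0.0490, edgeR adjusted p = 0.00676). NDUFV1 no longer passed when control replicate 1 was left out (edgeR adjusted p = 0.0541, with 1.39e-04 to 0.0888 over 15 alternatives). Nor did it pass with library size alone (-0.10, edgeR adjusted p = 0.0888) or with the length dependence removed (-0.09, edgeR adjusted p = 0.0796). NDUFS8, an iron-sulfur subunit and the most abundant complex I mRNA per length (571 FPKM over all 6 libraries), was at 388, 349.7 and 364 against 442, 405 and 415 CPM. It fell without overlap (-0.20, SE 0.0493, edgeR adjusted p = 0.00300), but its log2 fold change was 0.01 with the length dependence removed.

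Accessory subunits of complex I surround the core and serve its stability and assembly. Of the NDUFA genes 9 of 12 fell (median log2 fold change -0.20), and of the NDUFB and NDUFC genes 8 of 14 (also -0.20). Among all genes under 1000 nt 49.0% were called lower, with a median of -0.19. With the length dependence removed 4 of the 12 fell and 2 rose, and 2 of the 14 fell and 4 rose. The medians of the 12 and the 14 were then -0.004 and -0.003. The largest fall of the complex was that of NDUFB9 (Entrez 4715), a LYR-motif protein of the membrane arm, at 105, 109 and 115 CPM in oeALKBH5 and 154, 146 and 153 CPM in controls. Every oeALKBH5 library was well below the controls, by 27.3% on average (-0.46, SE 0.0489, edgeR adjusted p = 3.35e-07). NDUFA9 (Entrez 4704, GRCh38 chromosome 12, 4649095 to 4694317, plus strand), a subunit beside the ubiquinone site, was at 67.8, 61.0 and 67.4 against 89.4, 88.3 and 88.9 CPM. It was also lower throughout (-0.44, SE 0.0527, edgeR adjusted p = 1.59e-06). NDUFA6, another LYR-motif protein, was at 71.7, 72.2 and 80.7 against 93.9, 93.7 and 102 CPM (-0.36, SE 0.0559, edgeR adjusted p = 3.05e-05). NDUFA13, also known as GRIM-19 and second in level at 429.6 FPKM, fell by 0.27 on the log2 scale (SE 0.0475, edgeR adjusted p = 1.47e-04), at 189, 174 and 190.4 against 226, 217 and 224 CPM; with the length dependence removed it did not pass (-0.02, adjusted p = 0.808, the highest of its 15 alternatives). Of the 11 complex I genes that did not pass, 10 had negative values; NDUFA11 came nearest (edgeR adjusted p = 0.0501). The exception was the readthrough gene NDUFC2-KCTD14, at 22.1, 21.2 and 19.3 against 19.6, 18.1 and 17.8 CPM (0.18, SE 0.0773, edgeR adjusted p = 0.0728). It shares sequence with NDUFC2, which fell (-0.30, edgeR adjusted p = 7.22e-05), so the split of reads between the pair is uncertain.

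Complex II is succinate dehydrogenase, which also belongs to the tricarboxylic acid cycle. Of its 4 genes 3 fell, beside 22.0% of all tested genes. SDHB (Entrez 6390, GRCh38 chromosome 1, 17018722 to 17054170, minus strand), whose iron-sulfur clusters carry electrons to ubiquinone, was at 55.4, 59.3 and 62.1 CPM in oeALKBH5 and 83.6, 80.9 and 84.8 CPM in controls. The gap between the groups exceeded the spread within either (29.1% lower, log2 fold change -0.50, SE 0.0538, edgeR adjusted p = 4.56e-07). The membrane anchors SDHC and SDHD followed. SDHC was at 122, 118 and 125 against 142, 150.5 and 144 CPM (-0.26, SE 0.0470, edgeR adjusted p = 1.90e-04). SDHD was at 54.5, 60.5 and 64.5 against 77.0, 75.5 and 75.5 CPM (-0.35, SE 0.0583, edgeR adjusted p = 8.57e-05). SDHA, the flavoprotein that oxidises succinate, was at 160.4, 165 and 161 against 176, 167 and 175 CPM. Its libraries did not overlap, but the difference did not pass (-0.09, SE 0.0452, edgeR adjusted p = 0.116). SDHB and SDHA are present in equal numbers in the enzyme. Per length, their mRNAs were at 62.7 ± 3.34 and 60.6 ± 1.32 FPKM in oeALKBH5 and at 83.7 ± 1.68 and 61.5 ± 1.22 FPKM in controls (SD, n = 3 each). The difference between their changes was not tested.

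Complex III passes electrons from ubiquinol to cytochrome c. Of its 9 tested genes 8 fell (median log2 fold change -0.25), beside 22.0% of all tested genes. Both redox subunits in the nuclear genome were lower. UQCRFS1, the Rieske iron-sulfur protein, was at 85.5, 93.8 and 102 CPM in oeALKBH5 and at 125, 123 and 124 CPM in controls. Its oeALKBH5 libraries were spread, yet all below the controls (-0.40, SE 0.0557, edgeR adjusted p = 9.17e-06). CYC1, cytochrome c1, was at 127, 119 and 127 against 158, 145 and 148 CPM (-0.28, SE 0.0493, edgeR adjusted p = 1.52e-04). The largest fall was that of UQCR10 (Entrez 29796, GRCh38 chromosome 22, 29767369 to 29770413, plus strand), a small subunit, at 64.9, 68.5 and 71.5 against 98.1, 96.7 and 92.6 CPM. It was 28.7% lower (-0.49, SE 0.0520, edgeR adjusted p = 3.43e-07). UQCR11, whose promoter is printed above, fell by 0.28 on the log2 scale (SE 0.0472, edgeR adjusted p = 8.22e-05), at 129.9, 127 and 132 against 165, 155 and 153 CPM. The mRNAs highest per length were the hinge protein gene UQCRH (202 FPKM) and the core protein gene UQCRC1 (186 FPKM), which fell by 0.22 and 0.21 on the log2 scale (edgeR adjusted p = 0.00147 and 5.03e-04); that of UQCRH was 0.03 with the length dependence removed. UQCRB did not pass, at 93.7, 115 and 124 against 124, 124 and 125 CPM: replicate 1 was low, and replicate 3 lay at the level of the controls (-0.16, SE 0.0841, edgeR adjusted p = 0.145). UQCRHL was not tested, with 0, 4 and 0 counts against 2, 0 and 0.

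Complex IV, cytochrome c oxidase, reduces oxygen; its catalytic core is encoded by the mitochondrial genome and was not analysed here. Of its 12 tested nuclear genes 11 fell (91.7%), with a median log2 fold change of -0.31. Over all tested genes 22.0% were called lower, and 49.0% of those under 1000 nt. COX5A (Entrez 9377, GRCh38 chromosome 15, 74919791 to 74938168, minus strand), a subunit on the matrix side, had the largest fall of all members. It was at 208, 213 and 219.9 CPM in oeALKBH5 and at 307, 303 and 307 CPM in controls. The libraries within each group were close together and the groups far apart (30.1% lower, -0.52, SE 0.0439, edgeR adjusted p = 1.58e-08). COX7B was at 66.1, 69.0 and 74.4 against 94.6, 91.4 and 96.7 CPM, without overlap (-0.43, SE 0.0534, edgeR adjusted p = 2.49e-06). COX6C was at 48.9, 55.1 and 66.2 against 72.9, 72.4 and 77.9 CPM, a wider spread in oeALKBH5 (-0.39, SE 0.0909, edgeR adjusted p = 0.00534).

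Several complex IV subunits have a common and a tissue-restricted paralogue, and the common one held nearly all the counts. The falls of the 6 common forms below (COX4I1, COX6A1, COX6B1, COX7A2, COX7A2L and COX8A) did not pass with the length dependence removed, at log2 fold changes of -0.11 (COX6A1) to 0.06 (COX4I1). COX4I1, the main form of the subunit that modulates the enzyme by ATP, was at 279, 270.4 and 299 against 309, 309 and 312 CPM. Its fall was small (-0.13, SE 0.0466, edgeR adjusted p = 0.0269) and was lost without any control replicate (adjusted p = 0.0662, 0.0762 and 0.0942 without replicates 1, 2 and 3) or oeALKBH5 replicate 2 (0.162), in a range of 0.00187 to 0.336 over 15 alternatives. COX4I2, the form known for its role in the hypoxia response, had 1, 0 and 1 counts in oeALKBH5 and 0 in every control, too few to test. COX6A1 was at 222, 210.0 and 214 against 276, 282 and 271 CPM (-0.36, SE 0.0445, edgeR adjusted p = 2.46e-06). COX6B1, the most abundant complex IV mRNA per length (567 FPKM), was at 212, 225 and 234 against 285, 263 and 278 CPM (-0.30, SE 0.0489, edgeR adjusted p = 6.29e-05), whereas the testis form COX6B2 held 10, 19 and 13 against 13, 9 and 11 counts (0.31, SE 0.350, edgeR adjusted p = 0.499). COX7A2, the liver form, was at 192, 214 and 226 against 271, 255 and 265 CPM (-0.33, edgeR adjusted p = 8.38e-05), and the muscle form COX7A1 held 0, 0 and 3 against 1, 0 and 1 counts. COX7A2L, which joins complexes III and IV, fell by 0.23 on the log2 scale (edgeR adjusted p = 0.00237). COX8A was at 93.6 ± 5.55 against 117 ± 4.82 CPM (SD, n = 3 each; -0.33, edgeR adjusted p = 5.23e-05), and COX8C held 0, 1 and 0 against 0, 0 and 1 counts. NDUFA4, a complex IV subunit despite its name, is listed under the symbol COXFA4 and so is not among the 86 members. It was at 252, 272 and 312 against 376, 359 and 367 CPM (-0.40, SE 0.0625, edgeR adjusted p = 1.15e-04), and its paralogue NDUFA4L2 (COXFA4L2) was under 1 CPM in all 6 libraries (0.00, SE 0.324, edgeR adjusted p = 0.996).

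Complex V makes ATP. Of its 19 tested genes 14 fell (73.7%, median log2 fold change -0.26). Over all tested genes 22.0% were called lower, and 49.0% of those under 1000 nt. Of the 5 genes with the ATP5F1 stem, for the catalytic head and the rotor subunits attached to it, 4 fell (median -0.34). ATP5F1B (Entrez 506, GRCh38 chromosome 12, 56638175 to 56646068, minus strand), the catalytic beta subunit, was the most abundant member per length at 605 FPKM. It was at 857, 879.9 and 977 CPM in oeALKBH5 and at 1189.9, 1131 and 1192 CPM in controls. All 3 oeALKBH5 libraries were clearly lower (22.7% lower, -0.37, SE 0.0502, edgeR adjusted p = 7.24e-06). The alpha subunit gene ATP5F1A was at 333, 345 and 379.6 against 449, 435 and 452 CPM (-0.34, SE 0.0498, edgeR adjusted p = 1.97e-05). The gamma subunit gene ATP5F1C, whose promoter is printed above, was at 145, 162 and 162 against 200.5, 194 and 203 CPM (-0.35, SE 0.0504, edgeR adjusted p = 1.46e-05). The SEs of these 3 values overlap, and differences among the subunits were not tested. ATP5F1E, the epsilon subunit, did not pass, at 187, 213 and 251 against 247, 242 and 248 CPM: replicate 1 was low and replicate 3 above every control (-0.18, SE 0.0926, edgeR adjusted p = 0.160).

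In the peripheral stalk (ATP5P genes) 3 of 4 fell, and in the membrane part (ATP5M genes) 7 of 9 tested. Over all tested genes 22.0% were called lower, and 49.0% of those under 1000 nt. With the length dependence removed 1 of the 4 and 1 of the 9 fell, and 1 of the 9 rose. ATP5PB, subunit b of the stalk, was at 111, 122 and 125 against 162, 153 and 155 CPM (-0.39, SE 0.0514, edgeR adjusted p = 4.69e-06). ATP5ME, subunit e, had the largest fall of the complex by estimate, at 40.4, 46.0 and 54.2 against 66.6, 65.6 and 58.3 CPM, but with a wide error (-0.44, SE 0.0943, edgeR adjusted p = 0.00344). ATP5MF, subunit f and second in level at 567 FPKM, fell by 0.28 on the log2 scale (SE 0.0499, edgeR adjusted p = 1.76e-04), and with the length dependence removed neither ATP5ME nor ATP5MF passed (adjusted p = 0.192 and 0.986, the highest of their 15 alternatives).

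The genes ATP5MC1, ATP5MC2 and ATP5MC3 encode the same mature c subunit of the rotor ring behind different import sequences. ATP5MC1 was at 91.9, 94.9 and 99.7 against 125, 114 and 120.1 CPM (-0.33, edgeR adjusted p = 3.59e-05), and ATP5MC3 at 183, 195 and 215 against 236, 235 and 238 CPM (-0.26, edgeR adjusted p = 5.85e-04). ATP5MC2, the most abundant of the 3 per length (397 FPKM), was at 217, 224 and 251 against 241, 238 and 235 CPM. Its groups overlapped and it did not pass (-0.05, SE 0.0512, edgeR adjusted p = 0.496); without oeALKBH5 replicate 3 it did (-0.11, adjusted p = 0.0479; 0.00205 to 0.964 over 15 alternatives). ATP5IF1, the inhibitor that stops the enzyme from running backwards, was at 106, 115 and 118 against 119, 114 and 110.5 CPM, with overlapping groups (-0.02, SE 0.0511, edgeR adjusted p = 0.811). The readthrough gene ATP5MF-PTCD1 ranged from 0 to 407 counts (SE 1.11), so its split from ATP5MF is uncertain. ATP5MGL was not tested, with 4, 3 and 0 counts against 2, 6 and 4.

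Respiratory chain mRNAs are short, and short mRNAs as a class were lower in oeALKBH5. The median effective length, taken from the ratio of counts to FPKM, was 760 nt for tested members and 3076 nt for all tested genes, and 75 of 81 members were shorter than the latter. Across 14155 genes the log2 fold change rose with length (Spearman's rho 0.26, over genes, which are not replicates), whereas among the 81 members rho was -0.07. Among genes under 1000 nt, 37 of 49 members were called lower (75.5%, median log2 fold change -0.25) and 0 higher, beside 49.0% and 7.35% of all 871 such genes (median -0.19). Among genes of at least 1000 nt, 25 of 32 members were called lower (78.1%, median -0.26) and 0 higher, beside 20.2% and 21.7% of all 13284 such genes (median 0.02). The distance between the medians of members and of all genes was thus wider in the long class, and that difference was not tested. Within each class members were also shorter, at a median of 580 against 765 nt and of 1890 against 3226 nt. In finer classes the medians of members and of all genes were -0.27 and -0.26 up to 500 nt. They were -0.20 and -0.21 at 500 to 750 nt, and -0.24 and -0.17 at 750 to 1000 nt. At 1000 to 1500 nt they were -0.31 and -0.12, and above 5000 nt -0.21 and 0.10.

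**Figure D3:**
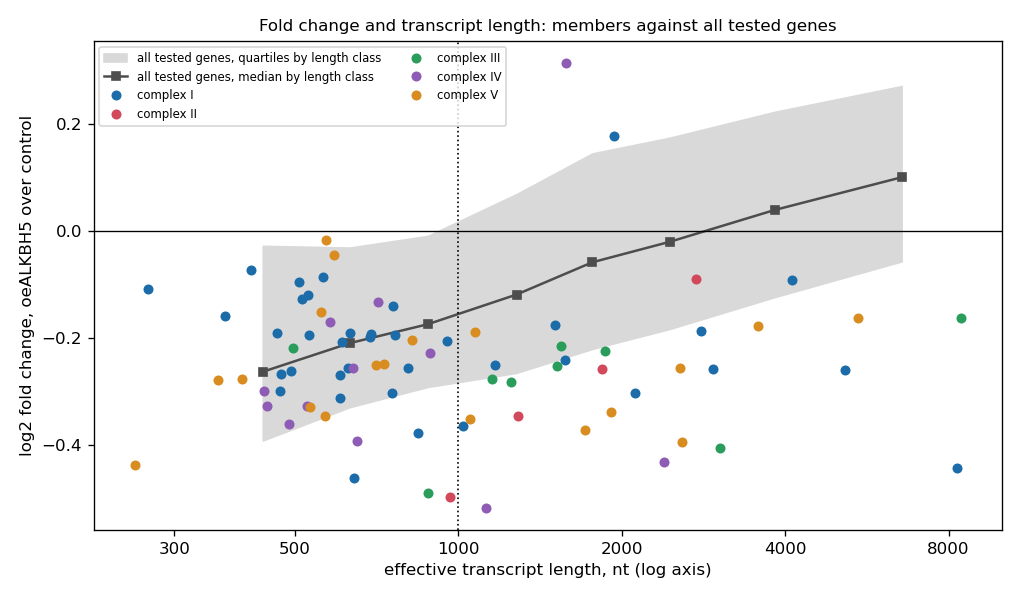
Log2 fold change (y axis) against effective transcript length in nt (x axis, log scale) for the 81 tested members, coloured by complex; squares and the grey band are the median and quartiles of all tested genes in 8 length classes, and the dotted line marks 1000 nt. The median of all genes climbs from -0.26 in the shortest class to 0.10 in the longest, while members of every class centre between -0.31 and -0.18.

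The trend with length in each library was then removed before the test. Under that setting 5 of 49 short members fell and 7 rose (median -0.02), beside 17.3% and 18.0% of all genes under 1000 nt. Of the 32 members of at least 1000 nt, 23 fell and 1 rose (median -0.21), beside 21.0% and 19.4% of such genes. Of the 62 falls 27 were kept and 35 lost, and 1 was gained (NDUFV3). The short members still called lower were COX6C, NDUFB9, NDUFS3, SDHB and UQCR10. COX5A kept a log2 fold change of -0.39 (edgeR adjusted p = 3.95e-07), SDHB -0.34 (1.69e-05), UQCRFS1 -0.41 (9.26e-06), ATP5F1B -0.31 (1.27e-05), and NDUFA9 reached -0.56 (3.01e-07). The 8 that rose were ATP5MC2, ATP5IF1, NDUFA11, NDUFA12, NDUFB1, NDUFB2, NDUFB11 and NDUFC2-KCTD14; in the fit without this correction all 8 had not passed. By complex, 10 of 37, 3 of 4, 7 of 9, 3 of 12 and 5 of 19 tested genes of complexes I to V fell. In complex I 6 of 37 rose and in complex V 2 of 19. Over all tested genes 20.8% fell and 19.3% rose under that setting. The medians for complexes I to V were -0.04, -0.22, -0.17, -0.07 and -0.09. Over all 16 fits of the counts, 26 members fell in each. That count was not made for all tested genes, so no background share stands beside it.

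**Figure D4:**
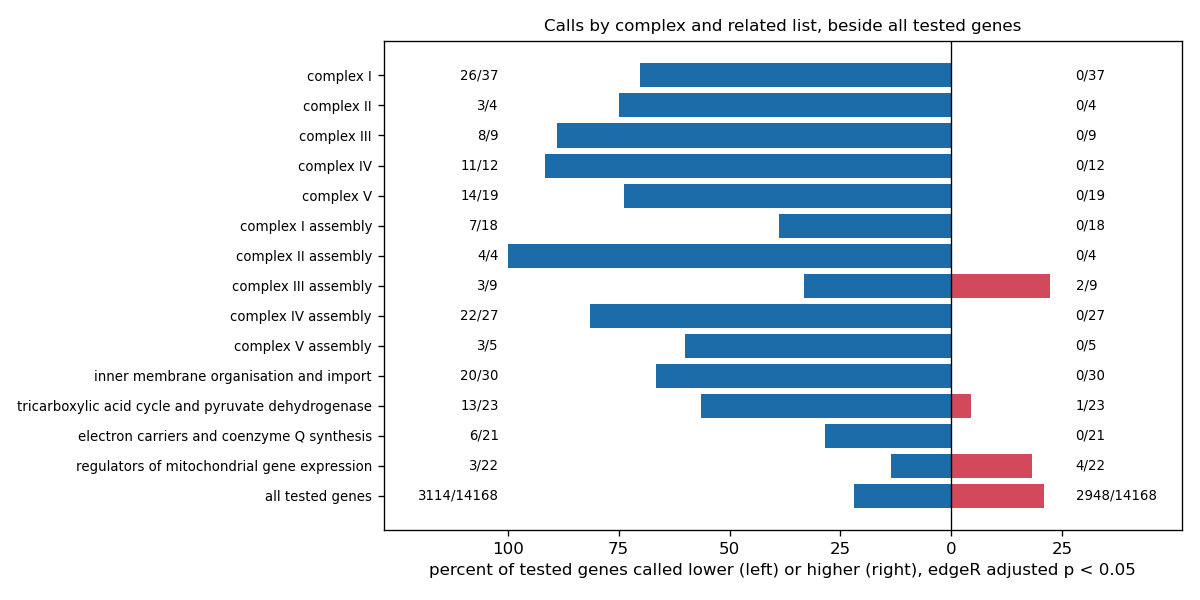
Percent of tested genes called lower (bars to the left) or higher (bars to the right) at an edgeR adjusted p under 0.05, for each complex, each related gene list and all tested genes, with counts of called over tested genes. The 5 complexes reach 70.3% to 91.7% lower with 0 higher, and the regulators 13.6% lower and 18.2% higher.

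Among genes that help to build the complexes, 39 of 63 tested assembly factors fell and 2 rose (median log2 fold change -0.21). These shares were 61.9% and 3.17%, beside 22.0% and 20.8% of all tested genes. For complex IV 22 of 27 fell and 0 rose; HIGD2A and the factor COA3 fell by 0.36 and 0.42 on the log2 scale (edgeR adjusted p = 4.56e-06 and 7.70e-06). For complex II, SDHAF1 to SDHAF4 all fell (4 of 4), led by SDHAF1, which helps to insert the iron-sulfur clusters into SDHB (-0.42, edgeR adjusted p = 3.50e-04). For complex I 7 of 18 fell, led by NDUFAF2 (-0.44, SE 0.0940, edgeR adjusted p = 9.02e-04); that count was 1 with library size alone or with the length dependence removed, where NDUFAF2 did not pass (-0.21, adjusted p = 0.0639, the highest of its 15 alternatives), and 4 without control replicate 1 or without oeALKBH5 replicate 2. For complex III 3 of 9 fell and 2 rose (33.3% and 22.2%), beside 22.0% and 20.8% of all tested genes. The risers were UQCC3 (0.47, edgeR adjusted p = 2.77e-04) and BCS1L, which inserts the Rieske protein (0.22, edgeR adjusted p = 0.0186). The BCS1L call was lost without control replicates 1 or 3 or oeALKBH5 replicate 3 (adjusted p = 0.0518, 0.0822 and 0.0913; 0.00154 to 0.0913 over 15 alternatives). For complex V 3 of 5 fell, TMEM70 (-0.35) and ATPAF2 (-0.29) among them. With the length dependence removed, 21 of the 63 assembly factors fell and 3 rose, beside 20.8% and 19.3% of all tested genes.

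Of 30 tested genes for inner membrane organisation and import 20 fell (66.7%) and 0 rose, beside 22.0% and 20.8% of all tested genes. Among those that fell were IMMT (-0.34) and CHCHD3 (-0.44), subunits of the MICOS complex that shapes cristae. With the length dependence removed 13 of the 30 fell and 0 rose, beside 20.8% and 19.3% of all tested genes. The median of the 30 moved from -0.21 to -0.10. Of 23 genes of the tricarboxylic acid cycle and pyruvate dehydrogenase 13 fell (56.5%) and 1 rose (4.35%). Removal of the length dependence gave 12 and 1. SUCLG1, a subunit of succinyl-CoA ligase, was at 107 ± 5.93 CPM in oeALKBH5 and 166 ± 8.51 CPM in controls (-0.62, edgeR adjusted p = 1.38e-08, n = 3 each). The riser was PDK1, a kinase that switches off pyruvate dehydrogenase, at 34.1 ± 6.89 against 16.3 ± 0.523 CPM (1.07, edgeR adjusted p = 1.93e-04, n = 3 each). Among 21 genes for electron carriers and coenzyme Q synthesis 6 fell (28.6%, beside 22.0% of all tested genes) and 0 rose; library size alone gave 2 and 3, and removal of the length dependence 4 and 3. Those that fell included NDUFAB1, the acyl carrier protein that is also part of complex I (-0.42), and ETFDH, which feeds electrons from fatty acid oxidation to ubiquinone (-0.42). Among 22 regulators of mitochondrial gene expression 3 fell and 4 rose (median 0.02), near the shares of all genes. The coactivator gene PPRC1 rose (0.29) and YY1 rose (0.21), and SSBP1, which binds mitochondrial DNA, fell (-0.36). TFAM, which packages mitochondrial DNA, did not pass (0.05, edgeR adjusted p = 0.508), nor did PPARGC1A (0.45, SE 0.244, edgeR adjusted p = 0.143). Leaving out 1 library changed the count of regulators: 2 rose without control replicate 3, and 1 fell without control replicate 1 or oeALKBH5 replicate 2.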

How the data were processed

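For each RefSeq transcript the authors deposited an estimated count, not scaled between libraries, and an FPKM value. The submitters' processing notes name the build GRCh38.p13 and the tools RSEM 1.2.8, HISAT2 2.1.0 and Bowtie2 2.2.5; what each did, and whether counting used strand, is not given in the sources used here. Reads that fit several transcripts are shared out in such estimates, so readthrough genes and close paralogues are uncertain one by one, and reads of 185 pseudogenes with matching symbols have no row in the tables.

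Transcript values were summed by Entrez identifier and the estimated counts rounded. Symbols matched 17881 genes; the other 149 held 0.0264% of counts. Counts were tested with edgeR 4.0.16 under R 4.3.3: TMM scaling, expression filter at a minimum count of 10, robust quasi-likelihood fit, two-sided, Benjamini-Hochberg adjustment over all 14168 tested genes, called under 0.05. The biological coefficient of variation was 4.61%, and the SE of a member's log2 fold change had a median of 0.0498 to 0.0559 by complex. limma 3.58.1 tested log2(FPKM + 1) where 3 or more libraries reached an FPKM of 1; folds on that scale understate changes of low genes.

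Alternative scalings were library size alone, upper quartile and DESeq2 size factors. Other alternatives were limma-voom, DESeq2 1.42.0, a replicate block, a filter at CPM 1 or none, and an adjusted p under 0.01. Each library was also left out in turn. A further alternative removed a loess trend on log2 effective length in each library. That trend was fitted to the difference between a gene's log2 CPM and its mean over all 6 libraries. For FPKM, no filter and a pseudocount of 0.1 were also used. The scaling alternatives for summed CPM and the split at 1000 nt were chosen after seeing the data. Scripts were tested on simulated data.

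Members and lists were chosen with earlier results of these data known. Named genes were ALKBH5, up to 4 largest called falls and 2 rises and the 2 highest FPKM values in each complex, redox or catalytic subunits, paralogue sets, and up to 2 rises and 2 falls by p in each related list; members that did not pass, NDUFC2, NDUFB4, GABPB2 and the factors without a call were named after their values were seen. Positions are from GENCODE release 29 (GRCh38). Figures were drawn with matplotlib 3.10.9.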

Additional observations from a re-analysis of the deposited data

How the results depend on the processing

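With 3 libraries a group, the smallest fall called among members was that of COX4I1 (-0.13), and the errors were wide for COX6B2, with few counts, and for ATP5MF-PTCD1, whose counts scattered between libraries. The count of members that fell was 49 to 67 under the other scalings, filters, tools and the replicate block, 53 at an adjusted p under 0.01 and 54 to 72 with 1 library left out; it was 28 with the length trend removed. All 62 falls kept a negative sign in every fit of the counts apart from the one with the length trend removed. The count that rose was 1 with upper quartile scaling or library size alone, 8 with the length trend removed, and 0 to 1 with 1 library left out. In complex I, 17 fell with library size alone. For all tested genes, library size alone gave 2047 lower and 4266 higher. In the related lists 81 genes fell and 7 rose; library size alone gave 52 and 14, 53 fell with the length trend removed, 4 rose at an adjusted p under 0.01, and 4 to 10 rose with 1 library left out. The log2 ratio of summed CPM was -0.26, and -0.18 with library size alone. In FPKM 39 to 62 members fell and 0 to 1 rose with 1 library left out. With the length trend removed 21 of the 79 members with negative values turned positive, 10 of them among the 62 falls. Among members named above they include NDUFS8 (0.00536), UQCRH (0.0252), COX4I1 (0.0626), ATP5MC2 (0.17, edgeR adjusted p = 0.00205) and ATP5IF1 (0.21, edgeR adjusted p = 0.00118). The source of the length trend was not tested. Replicates with the same number did not deviate together (correlations -0.02, 0.02 and -0.01), so the numbers do not pair the libraries; with the replicate block 67 members fell and 0 rose, in FPKM 53 fell and 1 rose, and the ALKBH5 call was lost (log2 fold change 0.89, edgeR adjusted p = 0.0538).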
